A study of Bos taurus with 4 samples.

Results

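Insulin signalling from the receptor to the FOXO transcription factors was followed here through 10 genes (INSR, IRS1, IRS2, GRB10, PIK3R1, AKT1, AKT2, FOXO1, FOXO3 and SLC2A4) in bovine intramuscular preadipocytes, precursors of the fat cells that lie within skeletal muscle. Members were all array probes that carry 1 of these gene names and are not control spots. The array distinguishes 25151 genes or unnamed targets by 43653 probes, and 21 of these probes measured 9 of the 10 genes. No probe carried the name IRS2. The 4 groups were cells at day 0 of adipogenic stimulation and cells after 6 days of it without retinoid (day 6 control), with 1 µM all-trans retinoic acid (ATRA) or with 1 µM 9-cis retinoic acid (9cRA). The stimulation medium of the day 6 groups held insulin (50 ng/mL), dexamethasone (0.25 µM), octanoate (5 mM), acetic acid (10 mM) and fetal bovine serum (10%), renewed every 2 days, so all 3 day 6 groups were exposed to insulin. Days in culture and exposure to this medium cannot be told apart. The labels list 1 sample per group, measured on 3 one-colour arrays, and nothing states that these came from separate cultures. The p-values below therefore reflect how far the arrays of a group differ, and that spread may be technical only. The study's title names its question, what vitamin A does to expression profiles while these cells undergo adipogenesis.

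Insulin binds its receptor (INSR), which phosphorylates docking proteins such as IRS1, and these recruit the lipid kinase PI3K through its regulatory subunit PIK3R1. The lipid product activates the kinases AKT1 and AKT2, which keep the transcription factors FOXO1 and FOXO3 out of the nucleus and bring vesicles with the glucose transporter GLUT4 (SLC2A4) to the cell surface. GRB10 is an adaptor that binds the activated receptor and dampens its signal. In fat cells the pathway drives glucose uptake and lipid storage. Most of its regulation lies in phosphorylation and localisation of proteins, which RNA arrays do not measure.

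Sequences are shown for probes on which the results turn, as deposited in the files, written from 5′ to 3′. Each is 60 bases long, and positions are those of the files on UMD3.1, which do not say whether they lie in an exon, an intron or a UTR. FOXO1 had the largest difference between groups, and PIK3R1 rose at each step; both are measured by a single probe. These are FOXO1 probe A_73_P077101 and PIK3R1 probe A_73_105509.
FOXO1 A_73_P077101: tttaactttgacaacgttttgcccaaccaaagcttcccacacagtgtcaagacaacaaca
PIK3R1 A_73_105509: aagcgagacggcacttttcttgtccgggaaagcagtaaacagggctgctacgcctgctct

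A pair of INSR probes overlaps at chr7:17306207-17306266 (A_73_P102791) and chr7:17306216-17306275 (A_73_118745), so that they read nearly the same stretch of the transcript. The 51 bases they share are in capitals.
INSR A_73_P102791: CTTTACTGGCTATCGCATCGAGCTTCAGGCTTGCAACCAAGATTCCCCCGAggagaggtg
INSR A_73_118745: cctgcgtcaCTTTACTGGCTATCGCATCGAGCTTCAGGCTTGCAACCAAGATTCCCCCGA

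A pair of IRS1 probes did not move alike. They lie 1871 bases apart, at chr2:115790711-115790770 (A_73_P095136) and chr2:115792582-115792641 (A_73_104292).
IRS1 A_73_P095136: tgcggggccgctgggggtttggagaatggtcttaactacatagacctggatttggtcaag
IRS1 A_73_104292: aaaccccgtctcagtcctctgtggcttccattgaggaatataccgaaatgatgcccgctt

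Levels below are log2 signal relative to the 75th percentile of the same array. They are compared between groups for the same probe. Each gene is represented by its brightest probe, and all 9 representing probes were well above background on all 12 arrays. Of the 21 probes, 15 were well above background on every array. Fits were made with limma over 17622 genes, and a gene was called at a Benjamini-Hochberg adjusted p under 0.05. On each array 64.8 to 74.0% of probe spots were well above background. The arrays lay on 3 slides of 4. Day 6 control array 1 shared slide 1 with the day 0 arrays, day 6 control arrays 2 and 3 shared slide 2 with ATRA arrays 1 and 2, and ATRA array 3 shared slide 3 with the 9cRA arrays, so no slide held both 9cRA and day 6 control. Day 6 control array 1 had 103 spots marked as non-uniform by the scanner software and each of the others 2 or fewer.

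Over 6 days of culture without retinoid, most of the measured pathway genes rose. INSR, GRB10, PIK3R1, FOXO1, FOXO3 and SLC2A4 were higher in the day 6 control than at day 0, AKT1 was lower, and IRS1 and AKT2 were not called. That is 7 of 9 genes called, where 62.3% of all genes tested were called in this comparison, 31.0% higher and 31.3% lower at day 6. The largest rise was that of FOXO1, 5.09-fold. The median difference was 0.60 over the 9 genes and 0.00 over all genes.

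At the receptor, INSR measured -3.86, -4.02 and -3.87 on the day 0 arrays and -3.22, -3.16 and -2.91 on the day 6 control arrays. All day 6 arrays lay above all day 0 arrays, and the log2 difference was 0.82 ± 0.11 (SE, n = 3 arrays a group; adjusted p = 7.3e-05, limma). IRS1, the docking protein, measured -2.36, -2.48 and -2.43 at day 0 and -2.70, -2.59 and -2.49 at day 6. Its day 6 arrays all lay lower, by a log2 difference of -0.17 ± 0.08 that was not called (adjusted p = 0.081, limma). It was called with slide as a block (-0.27, adjusted p = 0.027, limma), with median scaling (-0.24, adjusted p = 0.0088, limma), with quantile normalization (-0.24, adjusted p = 0.0048, limma) and without day 6 control array 3 (-0.22, adjusted p = 0.041, limma), and the mean over its probes had the opposite sign (0.10). GRB10, the inhibitory adaptor, measured 2.25, 2.19 and 2.25 at day 0 and 2.52, 2.59 and 2.52 at day 6. The arrays within each group differed little and the groups did not overlap, with a log2 difference of 0.31 ± 0.04 (adjusted p = 9.1e-05, limma).

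PIK3R1, the regulatory subunit of PI3K, measured -2.56, -2.70 and -2.48 at day 0 and -1.49, -1.74 and -1.55 at day 6. It rose 1.98-fold, a log2 difference of 0.99 ± 0.12 (adjusted p = 5.2e-05, limma), and its groups stood well apart. AKT1 was the single gene that fell. It measured 1.18, 1.26 and 1.16 at day 0 and 0.57, 0.18 and 0.29 at day 6, a log2 difference of -0.85 ± 0.09 (adjusted p = 1.1e-05, limma). Day 6 control array 1 was the highest of its group but still far below the day 0 arrays. AKT2, the AKT form best known for glucose uptake in fat and muscle, measured -4.04, -3.86 and -3.94 at day 0 and -3.72, -3.89 and -4.12 at day 6. The AKT2 arrays of both groups overlapped, and the log2 difference of 0.04 ± 0.13 was not called (adjusted p = 0.82, limma) and changed sign with median scaling (-0.036).

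FOXO1 measured 0.30, 0.21 and 0.24 at day 0 and 2.57, 2.57 and 2.65 at day 6. The gap between the groups was far wider than the spread within either, at a log2 difference of 2.35 ± 0.08 (adjusted p = 2.7e-09, limma). FOXO3 measured -1.15, -1.07 and -1.05 at day 0 and -0.24, -0.45 and -0.17 at day 6. It rose 1.75-fold with no overlap, a log2 difference of 0.81 ± 0.09 (adjusted p = 2.4e-05, limma). SLC2A4, which encodes the insulin-responsive transporter GLUT4, measured -3.94, -3.87 and -4.08 at day 0 and -3.57, -3.17 and -3.36 at day 6. It rose 1.51-fold (log2 difference 0.60 ± 0.10, adjusted p = 0.00032, limma), again with no overlap. With slide as a block, where the comparison rests on day 6 control array 1, the SLC2A4 difference was 0.40 (adjusted p = 0.016, limma). In bulk RNA, a change in the share of cells that express a gene and a change in RNA per cell cannot be told apart.

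**Figure D1:**
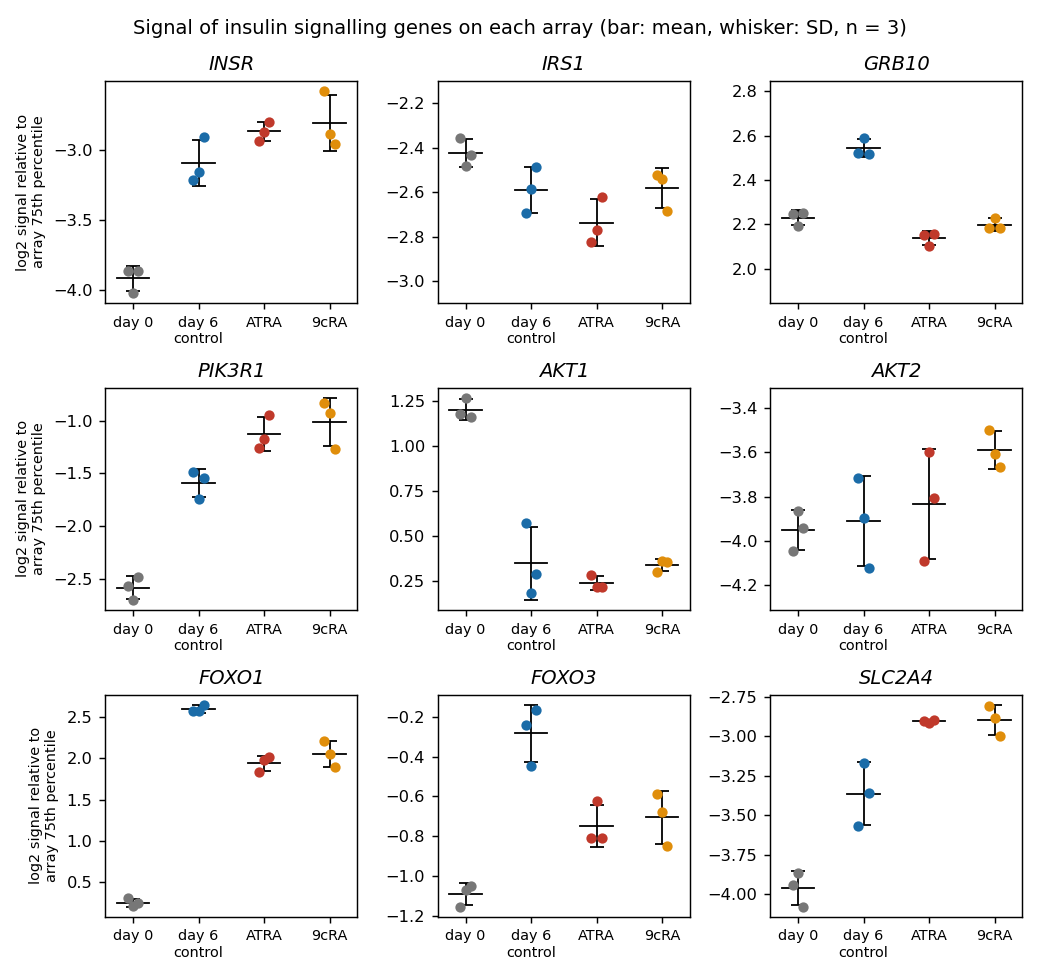
Log2 signal relative to the array's 75th percentile (y axis, a scale of its own in each panel) for the representing probe of 9 genes on each array of the 4 groups (x axis); points are arrays, bars the mean and whiskers the SD over 3 arrays. FOXO1 climbed from 0.25 at day 0 to 2.60 in the day 6 control and lay at 1.94 with ATRA and 2.06 with 9cRA, whereas PIK3R1 climbed at day 6 and lay higher still with either retinoid.

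With ATRA, FOXO1, FOXO3 and GRB10 were lower than in the day 6 control, and PIK3R1 and SLC2A4 were higher. INSR, IRS1, AKT1 and AKT2 were not called. That is 5 of 9 genes, beside 46.1% of all genes tested in this comparison (23.7% higher and 22.4% lower). The median difference was -0.11 over the 9 genes and 0.05 over all genes. The day 6 control arrays also enter the comparison with day 0, so the signs of a gene in both comparisons are not independent.

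FOXO1 measured 1.84, 1.98 and 2.01 on the ATRA arrays, each below the 3 day 6 control arrays and far above those of day 0. The log2 difference from the day 6 control was -0.66 ± 0.08 (adjusted p = 6.7e-05, limma). FOXO3 measured -0.81, -0.63 and -0.81, also below every day 6 control array, with a log2 difference of -0.46 ± 0.09 (adjusted p = 0.0020, limma). GRB10 measured 2.15, 2.10 and 2.16, below the day 6 control and slightly below every day 0 array. Its log2 difference from the day 6 control was -0.41 ± 0.04 (adjusted p = 2.4e-05, limma), and it was not called when the mean over its 2 probes was used (-0.22, adjusted p = 0.23, limma).

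PIK3R1 measured -1.26, -1.18 and -0.95 with ATRA, above all 3 day 6 control arrays. The log2 difference was 0.46 ± 0.12 (adjusted p = 0.011, limma). SLC2A4 measured -2.90, -2.91 and -2.90, 3 nearly equal arrays that all lay above the day 6 control. The log2 difference was 0.46 ± 0.10 (adjusted p = 0.0029, limma). INSR measured -2.93, -2.87 and -2.80, which overlapped the day 6 control at its array 3. Its log2 difference of 0.23 ± 0.11 was not called (adjusted p = 0.11, limma), and was called without that array (0.32, adjusted p = 0.037, limma). IRS1 measured -2.82, -2.77 and -2.62 and also overlapped. Its log2 difference of -0.15 ± 0.08 was not called (adjusted p = 0.14, limma), but was called with median scaling (-0.20, adjusted p = 0.030, limma), with quantile normalization (-0.20, adjusted p = 0.017, limma) and with slide as a block (-0.26, adjusted p = 0.025, limma). Both AKT genes overlapped the day 6 control. AKT1 measured 0.29, 0.22 and 0.22, a log2 difference of -0.11 ± 0.09 (adjusted p = 0.33, limma), and the sign turned without day 6 control array 1 (0.0038). AKT2 measured -4.09, -3.60 and -3.81, a log2 difference of 0.08 ± 0.13 (adjusted p = 0.65, limma), which turned with quantile normalization (-0.020).

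With 9cRA, FOXO1, FOXO3 and GRB10 were again lower than in the day 6 control and PIK3R1 and SLC2A4 higher. These are 5 of 9 genes, beside 46.5% of all genes tested (24.8% higher and 21.8% lower), and they were measured against the same control arrays as ATRA. The median difference was 0.01 over the 9 genes and 0.06 over all genes. With slide as a block 2 of the 5 calls were left, FOXO1 and GRB10, and over all genes tested the share called fell to 23.2% in that fit.

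FOXO1 measured 2.21, 2.06 and 1.90 with 9cRA, below every day 6 control array. Its log2 difference was -0.54 ± 0.08 (adjusted p = 0.00027, limma) and -0.66 with slide as a block (adjusted p = 0.016, limma). GRB10 measured 2.18, 2.23 and 2.18, within the range of the day 0 arrays or just under it and below the day 6 control. Its log2 difference was -0.34 ± 0.04 (adjusted p = 8.5e-05, limma), -0.38 with slide as a block (adjusted p = 0.0099, limma) and -0.31, not called, over both probes (adjusted p = 0.096, limma). FOXO3 measured -0.59, -0.68 and -0.85, all below the day 6 control. The log2 difference of -0.42 ± 0.09 (adjusted p = 0.0036, limma) was not called with slide as a block (-0.31, adjusted p = 0.27, limma) or over both probes (-0.23, adjusted p = 0.099, limma).

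PIK3R1 measured -0.84, -0.93 and -1.27 with 9cRA, above all day 6 control arrays. The log2 difference was 0.58 ± 0.12 (adjusted p = 0.0034, limma) and fell to 0.36 with slide as a block, where it was not called (adjusted p = 0.28, limma). SLC2A4 measured -2.81, -2.88 and -2.99, again above all of the control. Its log2 difference was 0.47 ± 0.10 (adjusted p = 0.0027, limma), and 0.36 with slide as a block, not called (adjusted p = 0.12, limma). INSR measured -2.58, -2.89 and -2.96. Its array 3 lay below the highest control array, and the log2 difference of 0.29 ± 0.11 was not called (adjusted p = 0.052, limma). It was called without day 6 control array 3 (0.38, adjusted p = 0.018, limma), without 9cRA array 3 (0.36, adjusted p = 0.032, limma) and with another background correction, normexp (0.22, adjusted p = 0.025, limma). AKT2 measured -3.50, -3.61 and -3.67, above every day 6 control array. Its log2 difference of 0.32 ± 0.13 was not called (adjusted p = 0.068, limma), but was without day 6 control array 1 (0.42, adjusted p = 0.032, limma). AKT1, at 0.30, 0.36 and 0.36, and IRS1, at -2.52, -2.54 and -2.69, lay among the control arrays. Their log2 differences of -0.01 ± 0.09 (adjusted p = 0.93, limma) and 0.01 ± 0.08 (adjusted p = 0.95, limma) were not called and changed sign with slide as a block (0.14 and -0.22).

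**Figure D2:**
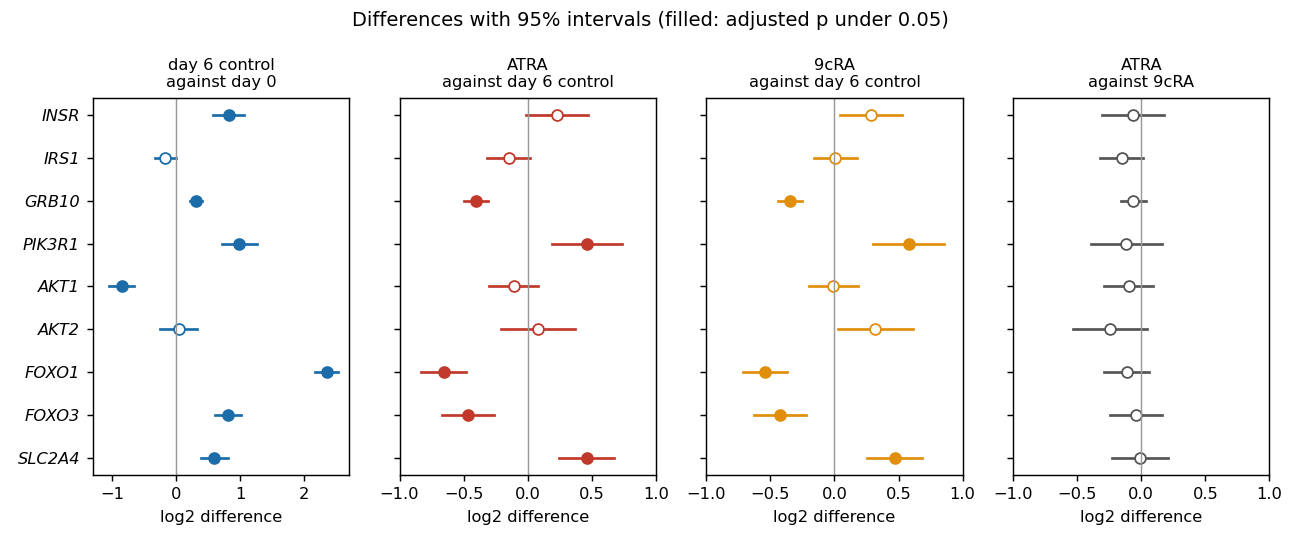
Log2 difference (x axis) of each gene (y axis) in 4 comparisons, with 95% intervals from the limma fit; filled points were called at an adjusted p under 0.05. FOXO1, FOXO3 and GRB10 lie right of 0 at day 6 and left of 0 with each retinoid, PIK3R1 and SLC2A4 lie right of 0 in all 3 of these comparisons, and every interval for ATRA against 9cRA includes 0.

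ATRA and 9cRA are stereoisomers that differ in the geometry of a double bond, and were given at the same dose and for the same time. Of the 9 genes compared, 0 were called between them by limma, 0 had an unadjusted p under 0.05, and 0 were called in each of the other fits run. Over all genes 0.119% were called. The 95% intervals bound the log2 difference (ATRA minus 9cRA) at -0.29 to 0.06 for FOXO1, -0.24 to 0.16 for FOXO3, -0.16 to 0.03 for GRB10, -0.39 to 0.16 for PIK3R1, -0.23 to 0.21 for SLC2A4, -0.30 to 0.18 for INSR, -0.32 to 0.01 for IRS1, -0.29 to 0.09 for AKT1 and -0.53 to 0.05 for AKT2. The interval was narrowest for GRB10 and widest for AKT2. All ATRA arrays of AKT1 lay below all 9cRA arrays, by a log2 difference of -0.10, and this was also so for GRB10, by -0.06; arrays did not overlap for 16.4% of all genes. The lowest unadjusted p was that of IRS1 (0.069, limma; adjusted p = 0.53).

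Against day 0, FOXO1, FOXO3, INSR, PIK3R1 and SLC2A4 were higher and AKT1 lower with either retinoid. With ATRA 7 of 9 genes were called, beside 71.5% of all genes, and with 9cRA 7 of 9, beside 71.3%. FOXO1 was 3.23-fold higher than at day 0 with ATRA and 3.49-fold with 9cRA. PIK3R1 was 2.73-fold and 2.97-fold higher, INSR 2.07-fold and 2.16-fold, and SLC2A4 2.08-fold and 2.10-fold. AKT1 was lower, by log2 differences of -0.96 and -0.86. FOXO3 was higher by 0.34 and 0.38, and neither was called with slide as a block (0.44, adjusted p = 0.075, and 0.54, adjusted p = 0.089, limma), nor the former with median scaling (0.22, adjusted p = 0.054, limma). GRB10 lay near its day 0 level, at differences of -0.09 (adjusted p = 0.071, limma) and -0.03 (adjusted p = 0.51, limma), neither called; with median scaling both were called (-0.22 and -0.16), and over both probes the sign turned (0.29 and 0.20). IRS1 was called lower with ATRA (-0.31, adjusted p = 0.0037, limma) but not over the mean of its probes (-0.07, adjusted p = 0.70, limma), which includes a probe too dim to be tested. With 9cRA it was not called (-0.16, adjusted p = 0.083, limma), but was with median scaling (-0.29), quantile normalization (-0.28) and slide as a block (-0.49). AKT2 was called higher with 9cRA (0.36, adjusted p = 0.030, limma) but not with ATRA (0.12, adjusted p = 0.44, limma), and its call was lost when 9cRA array 1 or 2 or day 0 array 1 or 3 was left out, with adjusted p between 0.061 and 0.094 (limma). It was also lost with median scaling (0.23), quantile normalization (0.15), no filter on dim probes (adjusted p = 0.052, limma) and slide as a block (0.61, adjusted p = 0.14, limma). For neither gene is a difference between the retinoids shown, as their intervals above include 0.

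The order of the 4 group means differed by gene. For INSR, PIK3R1 and SLC2A4 the order from the top was 9cRA, ATRA, day 6 control and day 0. In it the retinoids did not differ from each other, and the day 6 control differed from its neighbour above for PIK3R1 and SLC2A4 but not for INSR. For FOXO1 and FOXO3 the day 6 control stood highest, followed by 9cRA and ATRA, which did not differ, and then day 0. GRB10 was also highest in the day 6 control, while day 0, 9cRA and ATRA followed with no difference between neighbours. AKT1 was highest at day 0, with the other groups undistinguished. No neighbours differed for IRS1 or AKT2.

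INSR, IRS1, GRB10, FOXO3 and SLC2A4 carry more than 1 probe, and their probes did not always move alike. When every probe was tested by itself, 61.7% of 31205 probes were called for day 6 control against day 0, 43.5% for ATRA and 43.5% for 9cRA against the day 6 control, and 70.4% for ATRA against day 0. Of the 21 probes here, 17 were bright enough to be tested. For INSR, the representing probe A_73_P084326 at chr7:17280477-17280536 is at one end of the probed region, and the 3 other tested probes lie 25730 to 32033 bases from it. Of these, A_73_118745 was called higher with ATRA (0.49, adjusted p = 0.030, limma) and 9cRA (0.65, adjusted p = 0.0078, limma). A_73_P102031, which spans 2112 bases of genome, was also called higher with ATRA (0.62, adjusted p = 0.0095, limma) and 9cRA (0.56, adjusted p = 0.017, limma). A_73_P102791, which overlaps A_73_118745 as shown above, had log2 differences of 0.51 and 0.64. It passed the filter on dim probes only through the retinoid groups, where it is high, so its calls lend no support and are not counted. The representing probe had smaller differences, 0.23 and 0.29, so the INSR call with retinoid depends on the probe. A_73_P102791 and A_73_P102031 were each well above background on 2 of 3 day 6 control arrays and on all arrays of both retinoid groups, and A_73_P102031 also on all day 0 arrays. Over culture the probes moved the same way: A_73_118745 rose by 0.62 and A_73_P102031 by 1.10, while A_73_P102791 was not well above background on any day 0 array. The remaining INSR probes, A_73_119046 and A_73_P342866, were too dim to be tested.

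The 2 tested IRS1 probes gave opposite signs. A_73_104292 measured -3.89, -4.36 and -3.84 at day 0, -3.88, -3.48 and -3.50 in the day 6 control, -3.31, -3.51 and -3.30 with ATRA and -3.45, -3.42 and -3.30 with 9cRA. It was lowest at day 0, whereas the representing probe was highest there. It rose over culture by 0.41 (adjusted p = 0.033, limma), and stood 0.66 above day 0 with ATRA (adjusted p = 0.0023, limma), where the representing probe fell by 0.31 (adjusted p = 0.0041, limma, in the fit by probe). No direction is therefore given for IRS1 as a gene. Both probes have similar base composition, 50.0% G and C in A_73_104292 and 53.3% in A_73_P095136. The other IRS1 probe, A_73_P116131, was too dim to be tested.

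FOXO3 and GRB10 each have another probe. FOXO3 probe A_73_P313041, which spans 108109 bases of genome, rose by 0.64 over culture (adjusted p = 0.0041, limma) as the representing probe did. With ATRA it was lower by a similar 0.41 that was not called (adjusted p = 0.054, limma), and with 9cRA it differed by -0.03 (adjusted p = 0.87, limma). GRB10 probe A_73_P102631 had an SD of 0.56 at day 0, against 0.03 for the representing probe. It rose by 0.71 over culture (adjusted p = 0.041, limma) and differed by -0.03 with ATRA and -0.27 with 9cRA, neither called (adjusted p = 0.94 and 0.43, limma). SLC2A4 has 3 tested probes. A_73_P037951 is placed only 14 bases from the representing probe, so these read neighbouring stretches of the transcript. All 3 rose with both retinoids: the third, A_73_P102656, 974 bases away, by 0.31 (adjusted p = 0.027, limma) with ATRA and 0.44 (adjusted p = 0.0048, limma) with 9cRA, and A_73_P037951 by 0.33 and 0.42. Over culture A_73_P037951 rose by 0.48 but A_73_P102656 did not move beyond its spread (0.02, adjusted p = 0.87, limma), so the rise of SLC2A4 with retinoid was seen by every tested probe and its rise over culture was not. The last SLC2A4 probe, A_73_P108451, stayed at background throughout.

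**Figure D3:**
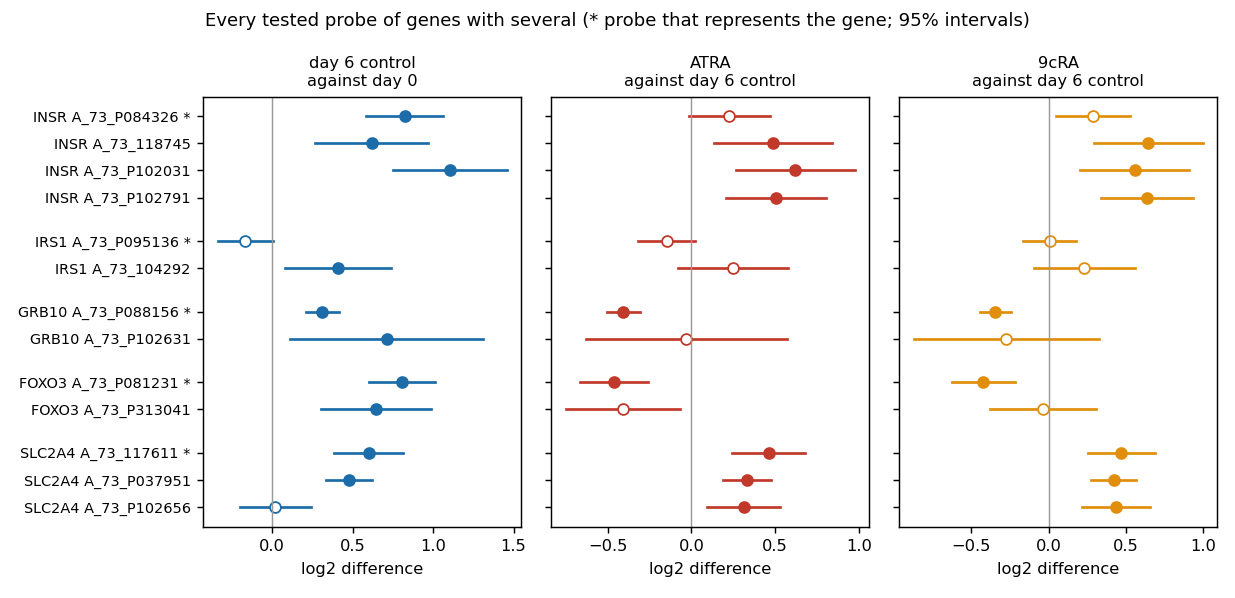
Log2 difference (x axis) with 95% interval for every tested probe of the 5 genes with several probes (y axis) in 3 comparisons; an asterisk marks the probe that represents the gene, filled points were called, and INSR A_73_P102791 is left out at day 6 because no day 0 array gave it a level well above background. INSR A_73_118745 and A_73_P102031 were called with both retinoids where the representing probe was not, A_73_P102791 passed the filter only through the retinoid groups, and the 2 IRS1 probes lie on opposite sides of 0 at day 6.

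For the 4 genes whose group means spanned at least 1 on the log2 scale, the genes of most similar pattern were taken by Pearson r over the 12 arrays among 2562 genes with a span as wide. The 12 arrays fall into the 4 groups, and r is given as a description. For FOXO1 they were RGS17 (0.998), ZBTB16 (0.996) and PLSCR4 (0.996). For INSR they were TET2 (0.994), AMPD2 (0.987) and ACVR2B (0.987), and for PIK3R1 ONECUT2 (0.985), ABCA1 (0.984) and TET2 (0.983). For SLC2A4 they were ID3 (0.987), KREMEN2 (0.986) and OSBPL3 (0.986).

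Other genes of the pathway were followed in 6 lists, first at the receptor. Over all genes tested, 31.0% rose and 31.3% fell over culture, 23.7% and 22.4% with ATRA and 24.8% and 21.8% with 9cRA, and the counts of each list stand beside these shares. Of 27 genes that act at the receptor level (adaptors, phosphatases, modulators), 22 were tested; 7 rose and 6 fell over culture, near the shares of all genes, with a median difference of 0.07. ENPP1, which encodes a membrane phosphodiesterase known to bind and inhibit the insulin receptor, rose 26.9-fold (4.75, adjusted p = 1.1e-09, limma). CAV1, which encodes caveolin, rose by 1.30, and the adaptors SHC1 and DOK1 fell by 1.20 and 1.00. With ATRA 7 rose and 3 fell, and with 9cRA 10 rose and 3 fell. Counted among the 7 is SOCS3, which passed the filter on dim probes only through the retinoid groups, where it is high. The 3 that fell were the same in both: CAV1 (-2.19 with ATRA and -1.95 with 9cRA), SOCS2 (-1.63 and -1.71), a feedback inhibitor of cytokine and growth hormone signalling, and the phosphatase PTPRF (-0.47 and -0.45). SH2B1, an adaptor that enhances receptor signalling, rose by 0.73 and 0.68.

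Downstream, 21 of 25 genes of the PI3K and AKT step were tested. Over culture 4 rose and 12 fell, with a median of -0.33 against 0.00 over all genes. Among those that rose were PIK3CD (0.46), which encodes a catalytic subunit of PI3K, INPP5K (0.23) and PPP2R5C (0.16). The tested probes of INPP5K (from -0.18 to 0.44) and PPP2R5C (from -0.21 to 0.16) did not all rise. The fallers with the smallest adjusted p were PIK3IP1 (-1.29), a PI3K inhibitor, the AKT-related kinase SGK1 (-1.28), and the pseudokinases TRIB3 (-1.38) and TRIB2 (-1.02). With ATRA 6 rose and 6 fell, and with 9cRA 7 rose and 6 fell. PIK3IP1 was lower with each (-0.45 and -0.36), as was the representing probe of TRIB3 (-1.09 and -1.26), while TRIB1 was higher (0.48 and 0.58). Another TRIB3 probe differed by 0.07 with ATRA.

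Of 21 genes of the mTOR branch, which links AKT to protein synthesis, 18 were tested. Over culture 5 rose: DDIT4 (3.14), an inhibitor of mTOR complex signalling, EIF4EBP1 (1.47), a repressor of translation, DDIT4L (0.78), ULK1 (0.63) and RPS6KB1 (0.56). The 5 that fell were MLST8 (-0.99), AKT1S1 (-0.61), RPS6KB2 (-0.52), EIF4E (-0.41) and RHEB (-0.37). With each retinoid 3 of 18 were called, where 46.1% (ATRA) and 46.5% (9cRA) of all genes were. EIF4EBP1 (1.22 with ATRA and 1.21 with 9cRA) and DDIT4L (0.63 and 0.64) rose and DDIT4 fell (-0.49 and -0.50).

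Of 29 genes of GLUT4 traffic and glycogen synthesis, 27 were tested; 6 rose and 12 fell over culture, with a median of -0.22. SORT1 (-2.35), a sorting receptor of GLUT4 vesicles, and the small GTPases RAB13 (-1.49) and RHOQ (-0.97) fell, whereas GYS1 (1.44), a glycogen synthase, rose. With ATRA 4 rose and 8 fell. The 4 were RAB13 (0.69), TBC1D1 (0.39), TBC1D4 (0.30) and RHOQ (0.11); TBC1D4 and TBC1D1 are AKT substrates that hold GLUT4 vesicles back. With 9cRA 5 rose and 8 fell; the 5 were TRARG1 (0.78), RAB13 (0.67), TBC1D4 (0.42), TBC1D1 (0.29) and RHOQ (0.16). GYS1 fell by 0.97 with ATRA and 0.89 with 9cRA, and PPP1R3C, which targets a phosphatase to glycogen, by 1.10 and 0.94. The glycogen synthase kinase genes GSK3A (0.13 and 0.13) and GSK3B (0.21 and 0.05), chosen after their values were seen, were not called. Another GSK3A probe differed by 0.52 with ATRA. The motor gene MYO5A fell by 0.78 and 0.70.

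Of 12 other sugar transporters of the SLC2 family, 6 were tested, and over culture 2 rose and 2 fell. SLC2A1, which encodes the insulin-independent transporter GLUT1, rose 12.9-fold (3.69, adjusted p = 6.6e-11, limma) and SLC2A3, which encodes GLUT3, 5.92-fold (2.57, adjusted p = 1.8e-09, limma). SLC2A6 (-0.59) and SLC2A8 (-0.39) fell, and SLC2A10 (0.02) and SLC2A13 (0.48) were not called. With ATRA and 9cRA SLC2A3 rose further (0.89 and 0.92), SLC2A6 fell further (-0.56 and -0.48), and SLC2A1 fell slightly (-0.26 and -0.20).

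**Figure D4:**
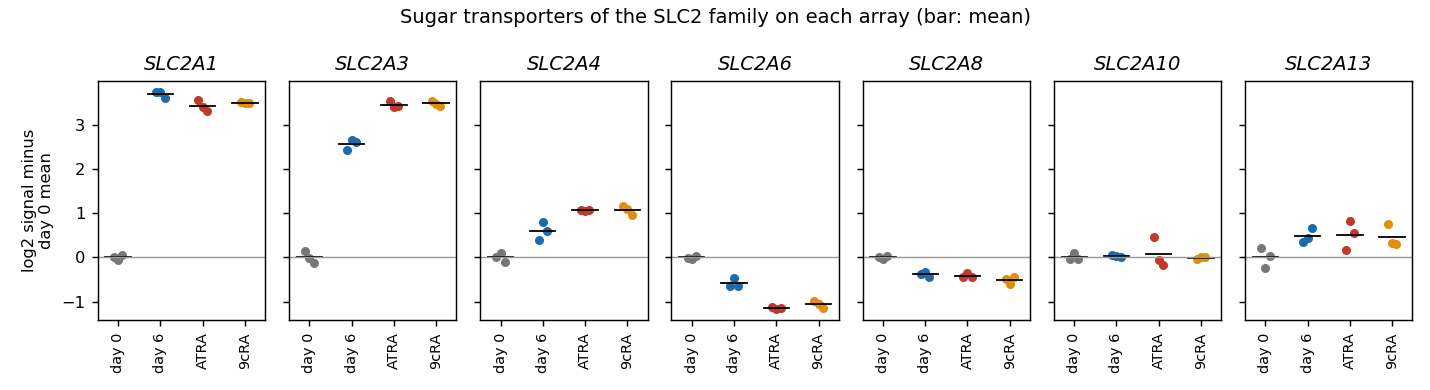
Log2 signal minus the gene's day 0 mean (y axis) for SLC2A4 and 6 other sugar transporter genes on each array of the 4 groups (x axis; day 6 is the control without retinoid); points are arrays and bars group means. SLC2A1 and SLC2A3 stand 3.69 and 2.57 above day 0 in the day 6 control and SLC2A4 0.60, and SLC2A3 and SLC2A4 are higher again with either retinoid.

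Of 39 known FOXO targets and partners, 33 were tested. Over culture, where FOXO1 and FOXO3 rose, 10 rose and 12 fell, with a median of 0.03. These 10 include PDK4, well above background on no day 0 array. PDK4 passed the filter on dim probes only through the day 6 groups, where it is high. The 12 include TRIM63, which passed only through day 0, where it is high. TXNIP (2.42), an inhibitor of glucose uptake, SESN1 (1.55), a stress-induced inhibitor of mTOR complex signalling, and EIF4EBP1 (1.47) rose, and YWHAH (-2.04), of the family that binds phosphorylated FOXO proteins in the cytoplasm, fell. With ATRA, where FOXO1 and FOXO3 were lower, 10 rose and 13 fell, and with 9cRA 11 rose and 12 fell. Counted among the 10 that rose with ATRA is IGFBP1, well above background on no day 0 or day 6 control array. It passed the filter only through the retinoid groups, where it is high. Counted among the 13 that fell with ATRA is again TRIM63, which passed only through day 0. The calls of these genes lend no support. The coactivator gene PPARGC1A (-1.37 with ATRA and -1.22 with 9cRA) and SESN1 (-0.95 and -0.84) fell, while the repressor gene BCL6 (1.13 and 1.12), EIF4EBP1 (1.22 and 1.21) and the autophagy gene GABARAPL1 (0.85 and 0.79) rose. The list did not move one way in any of these comparisons.

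The labelled cell type was checked against its markers. All 9 preadipocyte and fibroblast markers were well above background on all arrays of every group, at summed signals of 471, 583, 427 and 429 times the array's 75th percentile in day 0, day 6 control, ATRA and 9cRA. They did not move alike. Over culture 4 rose and 4 fell, most of all PDGFRA (2.12) and PDGFRB (-1.89). Against the day 6 control, 2 rose with ATRA (ZNF423 by 2.03 and PDGFRA by 1.38) and 3 fell (LUM by -2.75, THY1 by -1.77 and DCN by -0.69). With 9cRA 4 rose and 3 fell. FABP4, a fat cell marker, rose 20.3-fold over culture and was 30.6-fold lower with ATRA and 24.9-fold lower with 9cRA than in the day 6 control, and the summed signal of the 8 adipocyte markers, in which FABP4 has most weight, was 4.37, 78.0, 3.58 and 4.24. Of the 6 adipocyte markers tested, 4 rose and 1 fell over culture, the faller being CIDEC (-2.84), and 3 fell with ATRA and 2 with 9cRA. LPL rose by 2.49 over culture and differed from the day 6 control by -0.03 with ATRA and 0.14 with 9cRA, neither called. CD36 rose by 2.01, was lower with ATRA (-0.73) and was not called with 9cRA (-0.21). ADIPOQ, another marker of mature fat cells, stayed at background throughout. PPARG, the regulator of adipogenesis, rose 3.52-fold over culture and differed by 0.02 with ATRA and 0.06 with 9cRA, neither called. FOXO1, FOXO3 and GRB10 were, like FABP4, highest in the day 6 control, whereas SLC2A4, a gene of mature fat and muscle cells, was higher still with retinoid. Summed skeletal muscle markers, which bear on SLC2A4, were 76.1, 46.9, 20.3 and 22.5, with 5, 6, 6 and 6 of 8 genes well above background on all arrays. The members of this list did not move alike. DES fell by 0.74 over culture and was lower with ATRA (-1.31) and 9cRA (-1.14) than in the day 6 control, and ACTA1 fell by 0.59 and differed by -2.38 and -2.40. Another ACTA1 probe differed by 0.13 over culture. The 3 tested DES probes disagreed, with differences from -1.31 to 2.56 with ATRA and from -1.14 to 2.60 with 9cRA, and the values of DES and of the sum are those of its representing probe. MYH3 was well above background on none of the day 0 arrays and on all others, and differed from the day 6 control by 0.44 with ATRA, which was called, and 0.37 with 9cRA, which was not. MYOD1 (0.25 with ATRA and 0.32 with 9cRA), MYOG (0.21 and 0.04) and CKM (0.34 and 0.27) were not called against the day 6 control. MYF5 was well above background on no array and PAX7 on 1. Smooth muscle markers summed to 279, 144, 14.0 and 14.7, with 3 of 4 genes well above background in each group. Endothelial markers summed to 0.14, 0.19, 0.50 and 0.42, with PECAM1 at background throughout but VWF and TEK well above it on all arrays. VWF was higher with ATRA than in the day 6 control (2.34). Leukocyte markers summed to 2.07, 1.78, 4.15 and 4.05. AIF1 was at background throughout, but PTPRC, CD14 and CD68 were well above it on all arrays. All 4 tested leukocyte markers (these and CSF1R) were called higher with each retinoid than in the day 6 control, CD14 by 2.31 with ATRA. CSF1R was well above background on only 2 of 3 day 6 control arrays. With ATRA another probe differed by 0.01 for CD68, 0.31 for PTPRC, 0.84 for CD14 and 0.89 for CSF1R. Over culture 1 of these 4 markers rose and 2 fell. The part of these marker changes in the results for the pathway was not tested. DHRS3, a gene known to be induced by retinoic acid, was 20.0-fold higher with ATRA and 18.7-fold higher with 9cRA than in the day 6 control.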

How the data were processed

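Per the labels, RNA was labelled with Cy3 and hybridised to bovine oligonucleotide arrays. The authors deposited spot intensity from Feature Extraction 10.7.3.1 (per the submitters' processing notes), which per the file headers is background-subtracted and detrended, with no normalization between arrays. Each array held 45220 spots, and 1417 control spots and 191 outlier spots over all arrays were left out. Processed signals were converted to log2 and scaled by subtracting each array's 75th percentile (a signal of 1094 to 1359). A gene was represented by its brightest probe and tested if 1 or more groups had that probe well above background on each of their 3 arrays (17622 genes). Of 43653 probes, 28543 were named through RefSeq accessions and 5108 by a current symbol (ARS-UCD2.0, names only), 138 through an older symbol, 9843 kept the file's name, and the 21 members were taken by the file's name. The means of the 4 groups were fitted with limma 3.58.1 in R 4.3.3 (two-sided, Benjamini-Hochberg over all genes). Alternatives changed the scaling, background correction, filter, probe rule, slide, arrays and samples in the fit; testing every probe by itself was added after seeing the data. A further deposited table holds log2 values, averaged by group and centred on each probe's median, used as an alternative. Its column medians were 0.01, -0.01, 0.01 and 0.02. Members and lists were chosen with earlier results of these data known. All members and their probes are named. Of a list, up to 4 called genes of smallest adjusted p per comparison are named, if well above background on every array compared, and any gene where a count of 5 or fewer refers to it; their values in other comparisons are given beside these. A gene that this rule takes is not reported here. The number of arrays limits the precision.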

Additional observations from a re-analysis of the deposited data

How the results depend on the processing

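The members called numbered 7 (day 6 control against day 0), 5 (ATRA against day 6 control), 5 (9cRA against day 6 control), 0 (ATRA against 9cRA), 7 (ATRA against day 0) and 7 (9cRA against day 0). For 9cRA against day 6 control the count was 3 with the mean over probes, where 42.5% of all genes were called, and 2 with slide as a block, where 23.2% were and no slide held both groups; the other counts stayed within 1.5 times. Leaving out an array gave 7 to 8, 5 to 6, 5 to 6, 0 to 0, 7 to 7 and 6 to 7 calls. Of the differences of single genes, none that was called changed sign under these alternatives. Differences not called changed sign as follows, and the cause was not tested. With median scaling, AKT2 was -0.036 over culture and -0.012 for ATRA against day 0, and IRS1 -0.051 for 9cRA against day 6 control. With quantile normalization, AKT2 was -0.075 over culture, -0.020 for ATRA against day 6 control and -0.095 for ATRA against day 0, IRS1 -0.047 for 9cRA against day 6 control, and GRB10 0.0083 (ATRA) and 0.058 (9cRA) against day 0. With the mean over probes, IRS1 was 0.10 over culture, -0.092 for 9cRA against day 6 control and 0.0087 for 9cRA against day 0, and GRB10 0.092 for ATRA against 9cRA, 0.29 for ATRA against day 0 and 0.20 for 9cRA against day 0. That mean takes every probe of a gene, also those too dim to be tested. For IRS1 it includes A_73_P116131, whereas both tested probes were above 0 for 9cRA against day 6 control (0.0068 and 0.23). With slide as a block, AKT1 was 0.016 (ATRA) and 0.14 (9cRA) and IRS1 -0.22 (9cRA) against day 6 control, and for ATRA against 9cRA INSR was 0.0074 and PIK3R1 0.061. With normexp background, SLC2A4 was 0.025 for ATRA against 9cRA. Without single arrays, AKT2 ranged from -0.059 to 0.14 over culture, from -0.039 to 0.21 for ATRA against day 6 control and from -0.0011 to 0.25 for ATRA against day 0; AKT1 from -0.19 to 0.0038 (ATRA) and from -0.093 to 0.10 (9cRA) and IRS1 from -0.046 to 0.058 (9cRA) against day 6 control; and for ATRA against 9cRA FOXO3 ranged from -0.11 to 0.018, INSR from -0.14 to 0.052 and SLC2A4 from -0.060 to 0.034. Median scaling moved the median of all genes for ATRA against day 0 from 0.05 to -0.07. The deposited table gave the same direction for every member difference. It comes from the same arrays, and centring on each probe's median leaves differences between groups unchanged, so it is no independent check. No paired analysis was possible because the labels give 1 sample per group and array numbers come from no label. The representing probes were well above background on all arrays.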
